A study of Mus musculus with 2 samples.

Results

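Apart from *Lmo3*, the transcription factors described here are known to build and keep the outer root sheath (ORS) and hair follicle (HF) stem cells. The 8 genes, *Sox9*, *Lhx2*, *Nfatc1*, *Tbx1*, *Nfib*, *Runx1*, *Trp63* and *Lmo3*, were found by symbol among the 32285 genes listed, and all 8 had UMIs in the sorted cells. They were read in 1 library of a P1 mouse back skin labelled PADI4 WT and 1 with the label PADI4 cKO (batch 1 for each), from cells positive for the tdTomato reporter switched on by K14-Cre and sorted after the epidermis had been peeled away. The labels state K14-Cre *Padi4* fl/fl skins for both libraries, so the genotype of the PADI4 WT library beyond "WT" is open, and *Padi4* would be deleted only where K14-Cre had acted. Sorted cells of each animal were collected, but how many animals went into a library is not given in the sources used here. With 1 library for each label there is no replicate, so no test was made, and every interval below covers the counting of UMIs or cells alone.

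In the growing follicle the ORS is the outermost epithelial layer, continuous with the epidermis above and with the bulb below. Adult stem cells of the bulge are laid down early in the upper part of this sheath. *Sox9* and *Lhx2* are needed to specify and hold the stem cell state, *Nfatc1* keeps bulge cells out of the cell cycle, *Tbx1* marks and supports bulge cells, *Nfib* couples them to melanocyte stem cells, *Runx1* sets the timing of their activation, and *Trp63*, which encodes p63, keeps stratified epithelia basal and proliferative. *Lmo3* encodes a LIM-only protein, which binds no DNA itself and works through other proteins.

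The 15588 cells (8148 PADI4 WT and 7440 of the library labelled PADI4 cKO, with medians of 14653.5 and 16190 UMIs) fell into 23 clusters, found with the 8 factors left out. A cluster was assigned from marker lists that hold none of the 8. The ORS-like cells were clusters 6, 7, 11 and 14, with 2259 and 2101 cells. Of the 10 ORS markers cluster 11 raised 9, cluster 7 raised 7 and clusters 6 and 14 raised 4 each. Cluster 14 also raised 2 of 5 Merkel cell markers, *Krt8* and *Krt18*. The bulb-like cells, 3937 and 3864, held markers of the lower proximal cup, germinative layer, inner root sheath, cortex or medulla, and the upper follicle-like cells, 1102 and 739, those of the upper HF, sebaceous gland or epidermis. Cluster 2, with 5 of 10 ORS markers and 4 of 7 lower proximal cup markers, was kept apart as border cells. The keratin *Krt5* read 1397 and 1248 CPM in the cells of epithelial clusters, with UMIs in 96.7% and 97.8% of them, and 253 and 323 CPM in the fibroblast-like cells, with UMIs in 49.1% and 50% of them. *Padi4* read 0.77 CPM (UMIs of a gene for every 1000000 UMIs) from 99 UMIs over the epithelium of PADI4 WT and 0.72 CPM from 93 over that of the other. Reads from the 3′ end need not touch a deleted exon, so this does not check the label. Y-linked UMIs without *Xist* were found in 62.2% of the PADI4 WT cells and in 0% of the other library, which held *Xist* alone in 98.3% of its cells, so the libraries also differ in the sex of their cells. Cluster 12, with all 7 epidermal markers, had 198 PADI4 WT cells and 22 of the other library. Of the barcodes kept, 14 were shared between the libraries.

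All 8 factors were higher in ORS-like than in bulb-like cells in both libraries, with intervals clear of 0. Of all 14370 genes compared, 35.9% were. The size of the step separated the factors. *Lmo3*, *Sox9*, *Nfatc1* and *Tbx1* had the steep steps, with log2 ratios from 2.86 to 4.49. *Nfib* had a log2 ratio of 1.39 and 1.34, and *Trp63*, *Lhx2* and *Runx1* stayed between 0.30 and 0.67. Against the upper follicle-like cells, *Sox9*, *Lhx2*, *Tbx1*, *Nfib* and *Lmo3* were higher in the ORS-like cells (5 of 8, against 25.4% of 13045 genes), *Nfatc1* and *Runx1* were lower (2 of 8, against 20.9%), and *Trp63* was lower only in the PADI4 cKO library. The lower calls did not hold under all settings. With territories set by the number of markers the log2 ratio was 2.28 for *Nfatc1* and 0.60 (0.40 to 0.85) for *Runx1*, and with a limit of 4000 UMIs per cell 0.69 and −0.10 (−0.38 to 0.17).

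**Figure D1:**
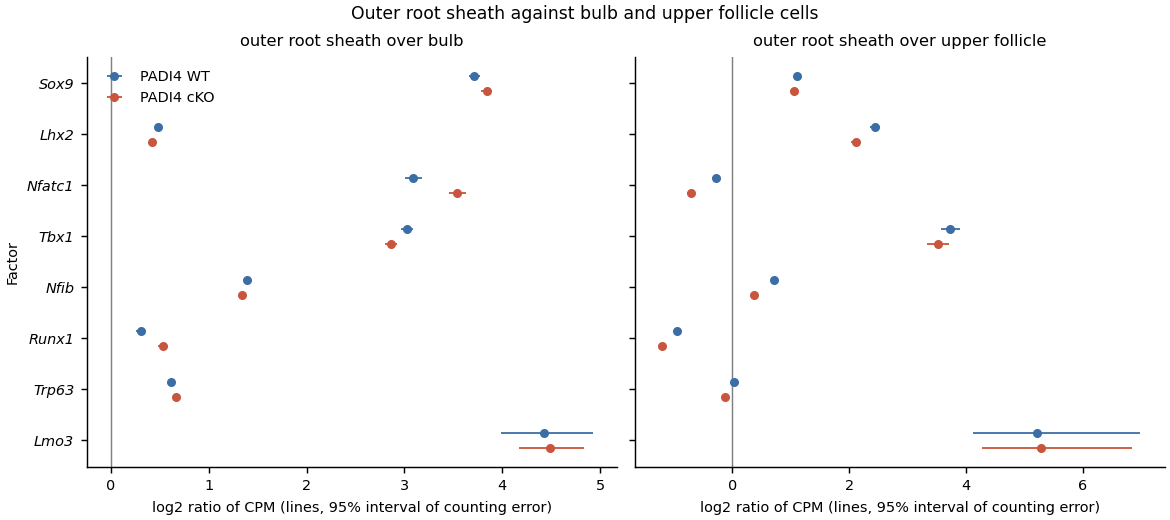
Log2 ratio of summed CPM in ORS-like over bulb-like cells (left) and over upper follicle-like cells (right) for the 8 factors. Points are the 2 libraries and lines are 95% intervals of counting error. All points lie right of 0 against the bulb, from 0.30 for *Runx1* to 4.49 for *Lmo3*, whereas *Nfatc1* and *Runx1* lie left of 0 against the upper follicle.

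*Sox9*, an HMG-box factor on chromosome 11 (112782224 to 112787760, plus strand, GRCm38), read 546 CPM in the PADI4 WT ORS-like cells and 527 CPM in the PADI4 cKO ones. In the bulb-like cells it read 41.6 and 36.8 CPM, a log2 step of 3.71 (3.66 to 3.77) and 3.84 (3.78 to 3.90). The upper follicle-like cells lay between, at 253 and 255 CPM. Within the sheath, cluster 11, with 9 of 10 ORS markers, stood above every other cluster compared, at 972 and 869 CPM. Clusters 7 and 6 followed at 483 and 495 CPM and at 480 and 464 CPM, with intervals that overlapped in both libraries. The border cells came next with 426 and 436 CPM. Cluster 14, led by *Olfml2b*, *Tagln* and *Acta2*, held only 187 and 161 CPM, below cluster 1 of the upper follicle (275 and 257 CPM). The last places went to bulb clusters, down to 13.1 and 5.5 CPM in cluster 8, a mean 99.3-fold below cluster 11. The upper bound for free RNA in the droplets was 13.0 and 12.9 CPM of *Sox9*, and the level in cluster 8 did not clearly exceed it. In the small cluster 20, with 41 and 21 cells and 4 of 7 upper HF markers, *Sox9* read 780 and 1055 CPM.

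*Tbx1*, a T-box factor on chromosome 16 (18580979 to 18590671, minus strand), had 281 and 262 CPM in the ORS-like cells, 34.5 and 35.9 in the bulb-like cells and 21.2 and 22.8 in the upper follicle-like cells. The sheath was therefore the high territory against both others, with log2 ratios of 3.03 (2.96 to 3.09) and 2.86 (2.80 to 2.93) over the bulb and of 3.72 (3.56 to 3.89) and 3.51 (3.33 to 3.71) over the upper follicle. Clusters 16, 11, 6 and 14 led the order. Cluster 16 read 306 and 373 CPM, cluster 11 read 335 and 316, cluster 6 read 324 and 306, and cluster 14 read 269 and 249. Cluster 16 raised 3 of 10 ORS markers. It was given no territory because *Krt8*, from the marker list of Merkel cells, was among its leading genes. Cluster 14 raised *Krt8* too, but not among its leading genes, and so kept its territory. Clusters 11 and 6 overlapped in both libraries, cluster 16 lay above cluster 11 only in the library labelled PADI4 cKO, and cluster 14 lay below cluster 6 in both. Outside the sheath 1 bulb cluster was an exception. Cluster 9, led by *Cacna2d3*, *Slit3* and *Ret*, read 177 and 182 CPM and held 63% of the *Tbx1* UMIs of the bulb clusters with 11.4% of their cells. Cluster 7 of the sheath read less, 115 and 127 CPM.

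*Nfatc1*, a calcineurin-controlled factor on chromosome 18 (80606205 to 80713071, minus strand), read 169 and 192 CPM in the ORS-like, 19.8 and 16.5 CPM in the bulb-like, and 206 and 315 CPM in the upper follicle-like cells. Its ORS to bulb step was 3.09 (3.0 to 3.18) and 3.54 (3.45 to 3.63). Its levels inside the sheath were far apart. Cluster 11 read 328 and 347 CPM, cluster 7 read 325 and 310, cluster 6 read 75.6 and 88.2, and cluster 14 read 14.6 and 14.1. Cluster 1 of the upper follicle, at 274 and 359 CPM, lay below both of them in the PADI4 WT library. In the other it lay above cluster 7, with an interval that overlapped that of cluster 11. This cluster, led by *Aldh3a1*, *Lpl* and *Scube2*, raised 5 of 7 upper HF markers and also 6 of 10 ORS markers, so the lower *Nfatc1* of the sheath against the upper follicle rests on where cluster 1 is counted. With territories set by the number of markers, clusters 1 and 20 were left out and the log2 ratio of *Nfatc1* turned to 2.28. Cluster 21, with 44 and 64 cells and 7 of 10 ORS and 6 of 7 upper HF markers, had the highest *Nfatc1* of all, 728 and 710 CPM.

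*Nfatc1* and *Tbx1* differed in which clusters held levels close to those of cluster 11. In cluster 14 *Tbx1* was at 80.2% and 78.7% of its level in cluster 11, while *Nfatc1* was at 4.46% and 4.06% of it. In cluster 1 it was the other way round, with *Nfatc1* at 83.5% and 103% and *Tbx1* at 5.51% and 5.97% of the level in cluster 11. *Nfib* was high on both sides, at 78.7% and 85.3% in cluster 14 and at 61.0% and 71.5% in cluster 1.

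**Figure D2:**
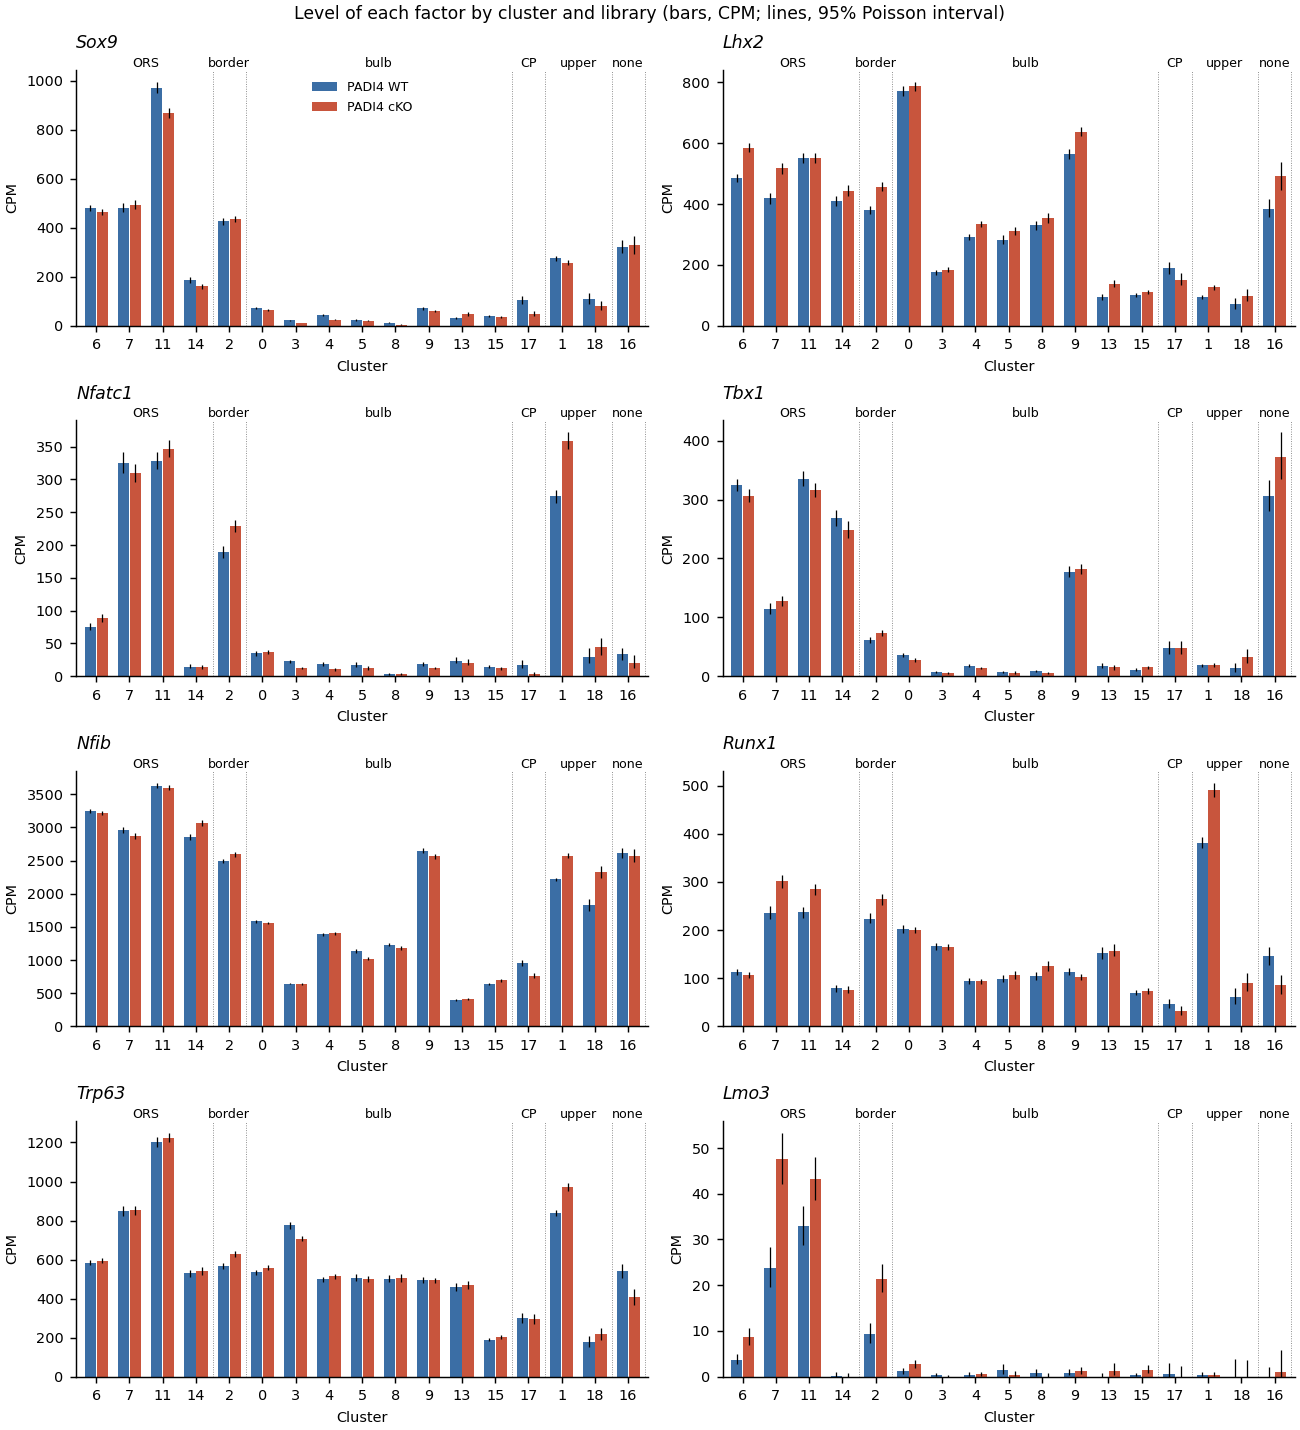
CPM of each factor (vertical axis, own scale per panel) in the 17 clusters with at least 50 cells in each library, ordered by territory, with ORS for ORS-like, CP for companion layer-like and none for cluster 16, which was given no territory. Blue bars are the PADI4 WT library, red bars the library labelled PADI4 cKO, and lines are 95% Poisson intervals. *Sox9* peaks in cluster 11 at 972 and 869 CPM, *Tbx1* stays high in cluster 14 where *Nfatc1* is at 14.6 and 14.1 CPM, and *Lhx2* peaks in cluster 0 of the bulb.

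*Lmo3*, on chromosome 6 (138362918 to 138581968, minus strand), was rare and had the steepest steps of the 8. It also came first among the leading genes of cluster 7, in a set of factors chosen with earlier results of these data known. It had 413 and 726 UMIs in the ORS-like cells, 44 and 85 in the bulb-like and 5 and 6 in the upper follicle-like cells, or 13.7 and 24.7, 0.63 and 1.09, and 0.33 and 0.59 CPM. Free RNA allowed up to 0.50 and 0.55 CPM, so the upper follicle was at about that level. Cluster 11 read 32.9 and 43.2 CPM and cluster 7 read 23.8 and 47.5 CPM, and which came first differed between the libraries. The border cells followed with 9.3 and 21.4 CPM and cluster 6 with 3.8 and 8.7 CPM. Cluster 14 of the same sheath held 0.17 and 0 CPM. The cells with UMIs of *Lmo3* were few even where it was high, 5.6% and 9.2% of ORS-like cells, with 0.53% and 0.70% in the bulb and 0 of 55 and 0 of 30 fibroblast-like cells, where counting alone cannot exclude shares of 5.45% and 10.0%. The *Lmo3* start region was the only one listed for the gene, at chr6:138581919-138582218 (GRCm38.p6, minus strand, 250 bases before to 50 after the start, RefSeq), and is shown because *Lmo3* ran from 47.5 to 0 CPM among the sheath clusters.
Lmo3: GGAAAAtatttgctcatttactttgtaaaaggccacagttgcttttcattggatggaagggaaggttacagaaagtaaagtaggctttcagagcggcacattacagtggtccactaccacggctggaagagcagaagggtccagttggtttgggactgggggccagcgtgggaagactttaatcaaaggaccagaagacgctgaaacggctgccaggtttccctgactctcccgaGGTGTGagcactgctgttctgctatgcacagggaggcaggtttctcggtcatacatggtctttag
The capitals mark GGAAAA, the core letters of NFAT sites, and GGTGTG, those of T-box sites, on either strand. GGAAAA was in 23.4% and GGTGTG in 19.0% of the 32851 start windows of the same length, so neither is rare.

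*Nfib*, a nuclear factor I gene on chromosome 4 (82290173 to 82705750, minus strand), was found in nearly all ORS-like cells, 100% and 99.95%, and in 94.8% and 96.3% of bulb-like cells. Its levels were 3219 and 3225 CPM in the sheath, 1229 and 1277 in the bulb and 1962 and 2512 in the upper follicle. In the order of clusters 11 of 16 neighboring pairs were apart in both libraries, more than for the other factors. *Nfib* also had the most UMIs of these factors, which narrows its intervals. Its highest mean level was 8.92-fold above its lowest, against 99.3-fold for *Sox9*. Cluster 11 led the order with 3632 and 3602 CPM, and cluster 13, led by *Dsg4* and *Krt35*, closed it with 398 and 414 CPM. Bulb cluster 9, the one with *Tbx1*, read 2650 and 2563 CPM, above every other bulb cluster. The gene overlaps 1 listed gene on its strand, *Gm11267*, which had 71 UMIs against 493526 of *Nfib*.

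*Trp63*, on chromosome 16 (25683763 to 25892102, plus strand), read 771 and 810 CPM in the sheath, 504 and 511 in the bulb and 762 and 881 in the upper follicle. The log2 difference between sheath and upper follicle, 0.02 (−0.01 to 0.05) and −0.12 (−0.16 to −0.09), was the smallest of the 8. Cluster 11 again led, with 1201 and 1224 CPM, followed by clusters 1 and 7. The lowest levels were those of cluster 15, with the inner root sheath keratins *Krt73* and *Krt71*, at 189 and 203 CPM, and of the sebocyte-like cluster 18 at 179 and 217 CPM. The UMI counts do not separate the long and short isoforms of p63.

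*Lhx2*, a LIM homeobox gene on chromosome 2 (38339281 to 38369733, plus strand), did not peak in the sheath. Its level was 477 and 537 CPM in ORS-like cells, 343 and 402 CPM in bulb-like cells and 87.7 and 124 CPM in upper follicle-like cells. Cluster 0, led by *Frem1* and *Sp5* and with 6 of 7 lower proximal cup markers, read 771 and 786 CPM, above every other cluster in both libraries. Cluster 9 of the bulb came next with 564 and 638 CPM, and cluster 11, with 551 and 550 CPM, was below it only in the library labelled PADI4 cKO. The *Lhx2* ratio of sheath over bulb, 0.48 (0.45 to 0.51) and 0.42 (0.39 to 0.44), was an average over bulb clusters that read from 95.2 CPM (cluster 13) to 771 CPM (cluster 0) in the PADI4 WT library and from 110 CPM (cluster 15) to 786 CPM (cluster 0) in the other. With a limit of 4000 UMIs per cell it was 0.032 (−0.032 to 0.095). At the bottom of the order stood the sebocyte-like cluster 18 (71.1 and 98.8 CPM), cluster 15 (102 and 110 CPM) and cluster 1 (94.7 and 127 CPM).

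*Runx1*, a Runt-domain gene on chromosome 16 (92601466 to 92826149, minus strand), was highest in cluster 1 of the upper follicle, 381 and 491 CPM, a mean 1.62-fold above the next cluster. Clusters 7 (236 and 301 CPM), 11 (237 and 284 CPM) and the border cells (224 and 264 CPM) overlapped as neighbors in both libraries. Clusters 6 and 14 of the sheath, with 113 and 106 and with 79.5 and 75.9 CPM, lay within the range of the bulb. The territory means were 158 and 190 CPM in the sheath, 128 and 132 CPM in the bulb and 305 and 438 CPM in the upper follicle. *Runx1* has a distal and a proximal start, which 3′ counts cannot tell apart. Both windows, from RefSeq on the minus strand of GRCm38.p6, are shown because the gene follows another order than *Sox9* and because they differ in base composition, chr16:92826025-92826324 being the distal and chr16:92697280-92697579 the proximal one.
Runx1 distal: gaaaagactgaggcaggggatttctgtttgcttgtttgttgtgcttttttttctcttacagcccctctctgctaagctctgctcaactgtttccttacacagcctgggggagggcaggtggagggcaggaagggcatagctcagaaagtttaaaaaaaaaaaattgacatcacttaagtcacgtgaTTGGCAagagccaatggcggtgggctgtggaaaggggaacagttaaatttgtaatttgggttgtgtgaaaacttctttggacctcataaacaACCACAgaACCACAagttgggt
Runx1 proximal: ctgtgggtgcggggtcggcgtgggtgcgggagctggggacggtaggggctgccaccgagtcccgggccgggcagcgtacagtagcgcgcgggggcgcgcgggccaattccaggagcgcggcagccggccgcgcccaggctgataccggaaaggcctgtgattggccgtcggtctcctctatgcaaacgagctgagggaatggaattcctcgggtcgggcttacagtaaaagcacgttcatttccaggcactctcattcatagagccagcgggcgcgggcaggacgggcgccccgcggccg
The distal window held 2 copies of ACCACA, the core letters of RUNX sites read on the other strand as TGTGGT, and 1 of TTGGCA, the core letters of NFI sites, all in capitals, whereas the proximal window held none of the 6 motifs searched. The letters of the RUNX motif were in 16.8% and of the NFI motif in 14.1% of all windows. The distal window had 2 CpG and 45% G or C, the proximal 35 CpG and 69%, against a median of 7 CpG and 52.7% over all windows. The other motifs searched on both strands were ACAAT for SOX (31.0% of all windows) and TAATTA for LIM homeodomain factors (5.29%), besides the NFAT and T-box letters above, and of the 7 windows of *Lhx2*, *Tbx1*, *Runx1* and *Lmo3* none held either.

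Cells carried several of these factors at once. With every cell reduced at random to 2000 UMIs, at least 3 of the 8 were found in 85.8% (84.3 to 87.2) of the PADI4 WT ORS-like cells and in 87.2% (85.7 to 88.6) of those labelled PADI4 cKO. The shares were 59.8% and 71.3% in the upper follicle, 33.3% and 35.7% in the bulb, 17.9% and 20.0% in the companion layer-like cells and 18.2% and 16.7% in the fibroblast-like cells. Cluster 11 had the most, with 96.4% and 96.8% and a mean of 4.64 and 4.62 factors per cell. Without thinning the shares were near their ceiling, 99.96% and 100% in the sheath and 88.6% and 93.2% in the bulb. The number of factors per cell depends on their single shares. At 2000 UMIs these were 99.6% and 99.2% for *Nfib*, 71.8% and 73.2% for *Trp63* and 60.5% and 62.9% for *Lhx2* in the sheath. The number that single shares alone would give was not computed, so these shares restate the levels. At 2000 UMIs *Sox9* was found in 60.4% and 61.7% of ORS-like cells against 6.5% and 4.8% of bulb-like cells, *Tbx1* in 43.0% and 40.5% against 5.5% and 5.2%, and *Nfatc1* in 26.6% and 28.5% against 3.25% and 2.61%. The fibroblast-like cells, with medians of 13445 and 16346.5 UMIs before thinning against 12010 and 12433 in the sheath and 16556 and 18769 in the bulb, had *Sox9* in 20.0% and 10.0%, *Tbx1* in 5.5% and 0% and *Nfatc1* in 0% and 3.3%, counts of so few cells (55 and 30) that their intervals take in the bulb shares of *Tbx1* and *Nfatc1*. The bulb shares of *Sox9*, 6.5% and 4.8%, lay below the shares of the fibroblast-like cells, 20.0% and 10.0%, the latter from only 30 cells. None of these bulb shares was read as expression.

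**Figure D3:**
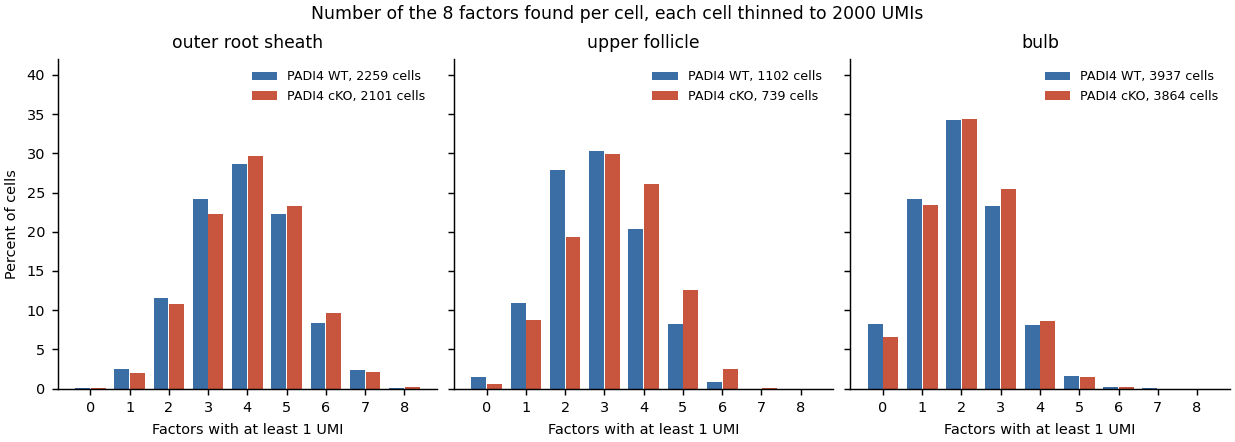
Percent of cells (vertical axis) by the number of the 8 factors with at least 1 UMI (horizontal axis) after thinning each cell to 2000 UMIs, for ORS-like, upper follicle-like and bulb-like cells of the PADI4 WT (blue) and PADI4 cKO (red) libraries. The ORS-like cells center on 4 factors, with means of 3.91 and 4.00, and the bulb-like cells on 2, with means of 2.05 and 2.11.

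Whether 2 factors sat in the same ORS-like cells more often than their single shares give was read for all 28 pairs. In 20 pairs the observed share was above the product of the single shares in both libraries and in 4 pairs below it. The medians over the pairs were 1.03 and 1.03, so most departures were small. *Nfib* was found in 99.6% and 99.2% of these cells, so its pairs could hardly leave 1, and they enter these counts. In simulated data pairs drawn independently ranged from 0.94 to 1.09. Their shares and number of cells were not matched to the factors, so this range is no yardstick for the pairs here. *Nfatc1* and *Runx1* had the largest ratio. They were found together in 10.1% of the PADI4 WT cells, where 7.17% was the product, a ratio of 1.41, and in 12.2% of the other library, where it was 8.59%, a ratio of 1.42. With the product taken inside each cluster the ratios were 1.18 and 1.16, still the highest of the 28. *Sox9* with *Nfatc1* went from 1.17 and 1.13 to 1.02 and 1.01 in the same way. *Nfatc1* with *Tbx1* went from 0.97 and 0.88 to 1.00 and 0.94, and *Tbx1* with *Runx1* from 0.96 and 0.88 to 0.98 and 0.93. *Lmo3* with *Nfatc1* changed sides, from 1.26 and 1.28 over all ORS-like cells to 0.85 and 0.93 within clusters, with only 19 and 30 cells holding both. Within clusters 17 pairs were above and 6 below 1 in both libraries. These ratios come from sparse counts and are a description.

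**Figure D4:**
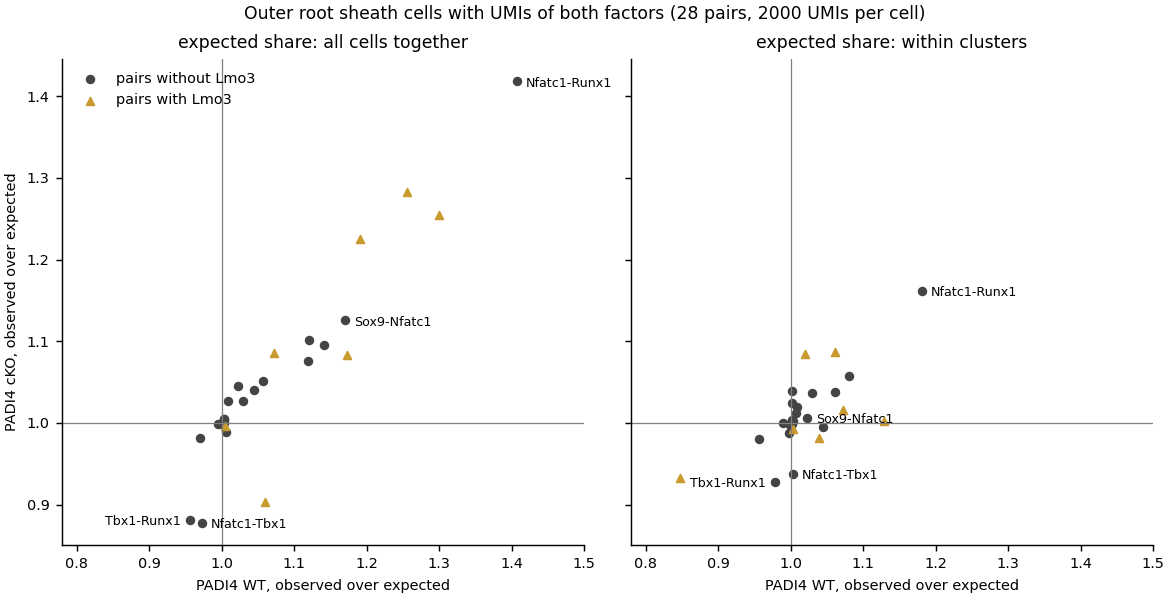
Share of ORS-like cells with both factors of a pair over the share that the single shares give, PADI4 WT on the horizontal and PADI4 cKO on the vertical axis, with the product over all ORS-like cells (left) or inside each cluster (right). Each point is 1 of the 28 pairs at 2000 UMIs per cell and triangles are pairs with *Lmo3*. *Nfatc1* with *Runx1* stands highest in both panels, at 1.41 and 1.42 and at 1.18 and 1.16, and most other pairs move toward 1 on the right.

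Levels also differed between the phases that cell cycle gene scores gave to ORS-like cells. *Sox9* read 775 and 716 CPM in cells called G1 and 391 and 329 CPM in cells called G2M. *Nfatc1* read 257 and 294 against 96.5 and 62.7 CPM, *Lmo3* 21.4 and 37.8 against 2.6 and 7.6 CPM, and *Trp63* 1015 and 1058 against 605 and 561 CPM. *Lhx2* did not share this order, with 496 and 548 CPM in G1 and 501 and 607 CPM in G2M. The clusters differ in their share of G1 cells, 81.6% and 81.3% in cluster 11 against 29.1% and 26.6% in cluster 6, so the comparison was repeated in each of the 4 ORS-like clusters and each library, cells called G1 against all others. *Trp63* and *Nfib* were higher in G1 in 8 of 8 such comparisons with intervals clear of 0, *Sox9*, *Nfatc1*, *Tbx1* and *Runx1* in 6 of 8, *Lmo3* in 2 of 8, and *Lhx2* in 3 of 8 with 4 of 8 lower. The share of all genes higher in G1 is not given here, so these counts are not read as a trait of the factors. Phase calls read free RNA too, and no cycling state is taken from them.

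The genes whose levels ran most like each factor over the 17 clusters were taken as the 3 with the highest Pearson correlation of log2 CPM in both libraries, out of 10663 genes. The clusters share libraries, and the values are a description. For *Sox9* they were *Gas1*, a Hedgehog co-receptor (0.96 and 0.96), *Lrig1*, an EGF receptor inhibitor (0.96 and 0.95), and *Barx2*, a homeobox factor (0.98 and 0.95). For *Lhx2* they were *Dennd1a* (0.92 and 0.93), *Gli1*, a Hedgehog target (0.88 and 0.90), and *Plscr4* (0.87 and 0.86). *Dennd1a* lies 51.9 kb from *Lhx2* on chromosome 2 (37798991 to 38287390) and was the only one of the 24 genes on the chromosome of its factor. For *Nfatc1* they were *Ncam1* (0.95 and 0.96), *Postn* (0.94 and 0.96), itself an ORS marker used for the naming, and *Skint4* (0.93 and 0.95). *Lrig1* and *Gli1* were also markers used for the naming, of the upper HF and of the lower proximal cup. *Tbx1* had *Itgb6*, an integrin subunit (0.98 and 0.97), *Trabd2b* (0.96 and 0.97) and *Cald1*, a regulator of actomyosin (0.94 and 0.96), of which *Itgb6* and *Cald1* were highest in cluster 14. *Nfib* had *Nt5c2*, *Csad* and *Ifitm2* (0.95 to 0.97), *Runx1* had *Grik4*, *Mmd* and *Rsf1* (0.83 to 0.87), and *Trp63* had *Reep1*, *Tnrc18* and *Tgif1* (0.88 to 0.91). *Lmo3* had *Pcdh20* (0.90 and 0.90), *Phlda1* (0.90 and 0.88) and *Glrb* (0.89 and 0.87), all highest in cluster 11. No factor was among the 3 genes of another. Between factors *Sox9* correlated with *Nfatc1* at 0.83 and 0.81 and with *Tbx1* at 0.79 and 0.82, and the correlation was near 0 for *Tbx1* with *Runx1* (0.15 and −0.02).

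Relatives and partners of the factors followed their own patterns. Of 20 paralogs 12 could be compared, and 8 were higher and 3 lower in ORS-like than bulb-like cells in both libraries, with a median log2 ratio of 0.65 against 0.04 over all genes, of which 35.9% were higher and 31.1% lower. The nuclear factor I genes *Nfia* (284 and 272 against 118 and 112 CPM) and *Nfix* (349 and 276 against 188 and 170 CPM) were higher in the sheath, as *Nfib* was. *Lmo1*, at 277 and 287 CPM in the sheath and 99.2 and 86.6 in the bulb, was highest in the upper follicle at 658 and 627 CPM, where *Lmo3* was at the level of free RNA. *Lmo4* read 287 and 299, 222 and 222, and 115 and 117 CPM in sheath, bulb and upper follicle. *Runx2*, at 20.4 and 20.6 CPM in the sheath and 68.3 and 66.5 in the bulb, was lower in the sheath. Of the 10 partners 9 could be compared, 5 higher and 1 lower in the sheath, with a median of 0.24. *Ssbp2* and *Ssbp3*, adaptors of LIM complexes, and *Ppp3ca*, the catalytic subunit of calcineurin, which activates NFAT factors, were among the higher ones. *Ppp3ca* read 297 and 332 CPM in the sheath and 134 and 140 in the bulb. *Cbfb*, the partner of RUNX factors, was higher by less, 130 and 128 against 108 and 111 CPM.

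Of 15 other follicle stem cell and sheath factors, 10 were higher and 5 lower in the sheath than in the bulb, with a median of 0.32. *Barx2* (956 and 874 against 52.2 and 42.3 CPM) and the Wnt effector *Tcf7l2* (656 and 697 against 175 and 187 CPM) were among those higher, and *Foxp1* had a smaller step, 376 and 449 against 345 and 316 CPM. *Sox4* was lower, 302 and 331 against 416 and 408 CPM. Of 10 basal epithelial genes that p63 is known to bind or hold up, 6 were higher and 4 lower, with a median of 0.66. *Krt5* (2228 and 2287 against 660 and 711 CPM) and *Krt14* (1600 and 1365 against 371 and 351 CPM) were steep, whereas *Perp* and *Fgfr2* were lower in the sheath, 477 and 472 against 619 and 544 CPM and 431 and 492 against 578 and 605 CPM. Compared with the 1.53-fold and 1.59-fold step of *Trp63* itself, the genes of this list thus went both ways.

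Between the libraries most levels of the 8 factors were close. In the ORS-like cells 7 of the 8 had log2 ratios of the PADI4 cKO over the PADI4 WT library between −0.10 and 0.27, and 1, *Lmo3*, lay past 0.5, where 4.47% of 12347 genes did. Over all clusters with at least 100 UMIs of a factor, 15 of 116 pairs of factor and cluster lay past 0.5, against 4.61% of the 150337 pairs of all genes. Of them 6 were above (1.99% of all pairs) and 9 below (2.62%). Taken by cluster, the share of all genes past 0.5 was 4.4% in cluster 6, 5.35% in cluster 7, 7.42% in the border cells, 4.26%, 3.06%, 2.74%, 3.55% and 4.07% in bulb clusters 3, 4, 8, 9 and 13, 7.6% in both clusters 16 and 17 and 8.64% in cluster 18. *Nfib*, *Trp63* and *Tbx1* were past 0.5 in none of 17, 17 and 14 clusters. Of the 15 pairs, 12 were from factors and clusters at levels below 100 CPM in both libraries. With a minimum of 500 UMIs 2 of 89 pairs were left, and the share of all genes at that minimum is not given here.

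**Figure D5:**
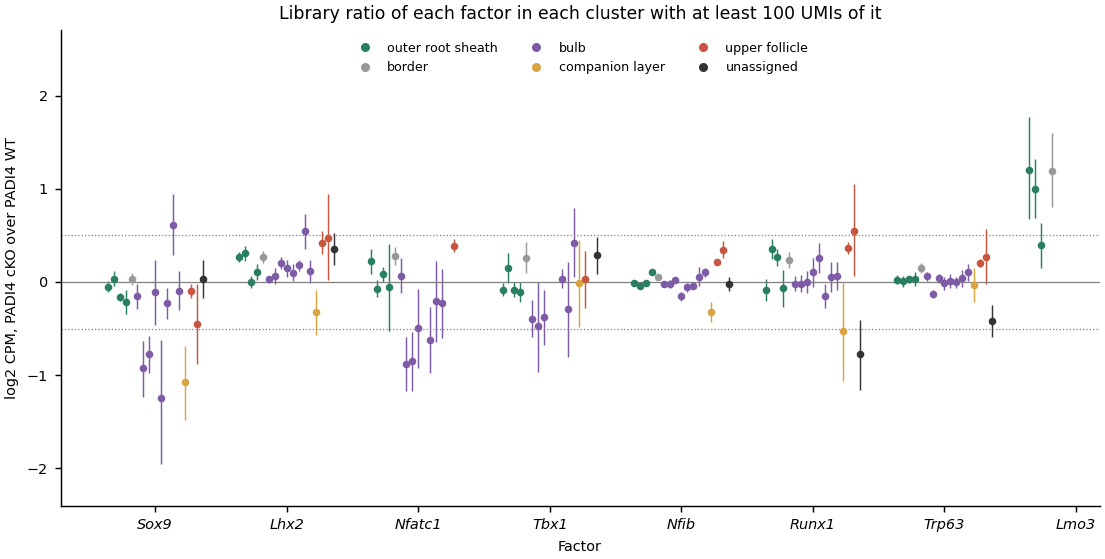
Log2 ratio of CPM, PADI4 cKO over PADI4 WT (vertical axis), of each factor in each cluster with at least 100 UMIs of it, colored by territory, with 95% intervals of counting error. Dotted lines mark 0.5 in both directions. *Lmo3* lies above 0 in all 4 of its clusters, 3 of them past 0.5, while *Sox9* lies past 0.5 below in 3 bulb clusters and in the companion layer-like cluster and above in cluster 13, and the *Nfib* and *Trp63* points stay inside.

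*Lmo3* was higher in the library labelled PADI4 cKO in all 4 clusters where it could be compared. The log2 ratio was 1.20 (0.68 to 1.77) in cluster 6, 1.00 (0.69 to 1.32) in cluster 7, 1.19 (0.81 to 1.60) in the border cells and 0.39 (0.15 to 0.63) in cluster 11, and 0.85 (0.67 to 1.03) over the ORS-like cells. The PADI4 WT cells with Y-linked UMIs and those with *Xist* UMIs give a view of the spread inside 1 library. Apart from cells misplaced through free RNA or missed UMIs, these groups come from different animals. In cluster 7 they read 14.2 CPM (221 cells) and 35.0 CPM (125 cells), against 48.2 CPM in the cells with *Xist* UMIs of the library labelled PADI4 cKO. In the border cells they read 6.2, 20.2 and 21.7 CPM in the same order. The log2 ratio between cells with *Xist* UMIs of the libraries was then 0.09 (−0.41 to 0.65) in the border cells, 0.45 (0.04 to 0.90) in cluster 7, 0.14 (−0.24 to 0.55) in cluster 11 and 0.63 (0.36 to 0.91) over the ORS-like cells. Within the PADI4 WT library the log2 ratio of cells with Y-linked over cells with *Xist* UMIs was −1.70 (−2.42 to −0.99) in the border cells and −1.30 (−1.91 to −0.70) in cluster 7. These were as large as the difference between the libraries there. The ratio was −0.26 (−0.68 to 0.18) in cluster 11, 0.35 (−0.62 to 1.48) in cluster 6 and −0.28 (−0.59 to 0.04) over all ORS-like cells. None of the other 7 factors lay past 0.5 in that comparison within the ORS-like cells, where 4.41% of 11042 genes did. Sex, animal and label cannot be told apart for *Lmo3*.

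*Sox9* was lower in the library labelled PADI4 cKO in bulb clusters 3, 4 and 8, at log2 −0.93 (−1.23 to −0.63), −0.78 (−0.98 to −0.58) and −1.24 (−1.95 to −0.62), and in the companion layer-like cluster 17 at −1.07 (−1.48 to −0.69). In cluster 13 it was higher, 0.62 (0.29 to 0.95). The levels there were low, from 13.1 to 104 CPM in the PADI4 WT library and from 5.5 to 49.3 CPM in the other, with the free RNA bound at 13.0 and 12.9 CPM. *Nfatc1* was lower in clusters 3, 4 and 9, at −0.88 (−1.17 to −0.59), −0.85 (−1.17 to −0.54) and −0.62 (−0.98 to −0.27), from 22.5, 18.3 and 18.8 CPM to 12.2, 10.2 and 12.2 CPM. Of the 55 genes of the 4 lists, 43 could be compared in cluster 3, where 5 lay past 0.5 below and 2 above. They were *Lmo1* (−1.12), *Barx2* (−1.01), *Tcf7l1* (−0.75), *Krt14* (−0.58) and *Itgb4* (−0.52), and *Hopx* (0.57) and *Gli1* (0.50). In cluster 4 there were 3 of 43 below and 0 above, *Zfp750* (−1.51), *Barx2* (−0.74) and *Lmo1* (−0.54). In cluster 17 there were 13 of 36 below and 0 above, *Barx2* (−2.86), *Lmo1* (−2.81), *Krt14* (−2.34), *Nfia* (−1.57), *Dst* (−1.25), *Tcf7l1* (−1.10), *Itga6* (−1.02), *Nfix* (−0.94), *Nfic* (−0.82), *Sox4* (−0.65), *Tcf7l2* (−0.54), *Vdr* (−0.52) and *Krt5* (−0.51). The part of outer sheath RNA in these bulb and companion layer droplets was not tested. In cluster 13 *Lhx2* was at 0.54 (0.36 to 0.73), and of 43 list genes 3 were above, *Lmo1* (0.85), *Lmo2* (0.73) and *Gli1* (0.56), and 1 below, *Jag2* (−0.52).

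*Runx1* was lower in clusters 16 and 17, at −0.77 (−1.16 to −0.41) and −0.53 (−1.07 to −0.02), and higher in cluster 18, at 0.55 (0.07 to 1.05), each with 250 or fewer UMIs in a library. Over the upper follicle-like cells *Nfatc1*, *Runx1* and *Lhx2* lay past 0.5 (0.62, 0.52 and 0.50), with 8.79% of 10966 genes there. Inside cluster 1, which held most of these cells, the ratios were 0.39, 0.37 and 0.42, and the 198 and 22 cells of cluster 12, where *Nfatc1* read 23.3 CPM and *Runx1* 133 CPM in the PADI4 WT library, enter the territory value. Of the lists, none had a gene past 0.5 in the ORS-like cells. In the upper follicle-like cells *Klf5* (−1.08), *Sox21* (−1.03), *Krt14* (−0.69), *Krt5* (−0.64) and *Dst* (−0.51) were lower in the library labelled PADI4 cKO, and inside cluster 1 only *Sox21* (−0.92) was. In the sheath clusters *Id2* was higher in clusters 6 and 7 (0.59 and 0.87), *Foxp1* in cluster 7 (0.54) and *Runx2* in cluster 11 (0.66), and in the border cells *Id2* (0.58) and *Trp73* (0.53) were higher and *Sox21* (−0.50) lower. The rest lay in cluster 5 (*Zfp750* 0.59), cluster 15 (*Krt14* −0.83 and *Lmo1* −0.52), cluster 16 (*Itga6* −0.67) and cluster 18 (*Hopx* −2.39, *Ssbp3* 0.63, *Ssbp2* 0.56 and *Lmo1* 0.54).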

How the data were processed

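Sorted cells of P1 back skin were sequenced as 2 single-cell libraries. The authors deposited raw UMI counts per gene and barcode, made with Cell Ranger 7.1.0 per the file headers, with empty droplets included and no normalization. The build mm10 stands in the submitters' processing notes, and whether intronic reads were counted is not given in the sources used here, which affects long genes such as *Nfib* the most.

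Barcodes were kept at 2000 to 60000 UMIs and 1000 to 8000 genes, with no more than 20% mitochondrial and 1% hemoglobin UMIs and a ribosomal share between the 5th and 99th percentile, as in the study's filter. CellBender and Harmony were not run. Free RNA was bounded from barcodes with at most 100 UMIs, at 7.78% and 7.63% of UMIs. Scrublet called 294 (3.61%) and 300 (4.03%) cells at the threshold of the library labelled PADI4 cKO, since its automatic threshold called 1 cell in the other, and these were kept. Scanpy 1.11.5 was used for 1000 variable genes, 50 components, 15 neighbors and Leiden resolution 1, without the 8 factors, cell cycle, Padi and sex-linked genes.

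A marker counted as raised at 1.5-fold and 5 CPM or more. Territories were the lists with the highest share of markers raised, at least 3, and clusters where share and number disagreed in the ORS, or that came over 90% from 1 library, were kept apart. No territory was given where the leading genes of a cluster held more markers of another territory. Both the territory rule and the doublet threshold were chosen once the clusters were known. Levels are CPM of summed counts with 95% Poisson intervals, shares have exact binomial intervals, and library ratios have exact conditional binomial intervals with 0.5 UMI added, for genes with at least 100 UMIs. A value past 0.5 on the log2 scale counts as called. Comparisons were limited to clusters of 50 or more cells per library. Of the alternative settings, 15 were planned and 7 were added after the data were seen. On simulated data for ORS-like cells with 12347 genes, 100% of genes changed by known folds, set past the limit of 0.5, were called. Of the others 0.502% were, and 95.5% of intervals held the true value. The simulated counts held counting error alone, so these shares cannot cover the spread between cells, animals or sexes.

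Gene positions are GENCODE vM21 (GRCm38), which matched 32235 of the 32285 listed genes. Start windows were listed for 4 of the 8 factors. The factors and lists were chosen with earlier results of these data known. Named beside the factors are the 3 most similar genes of each and, in each list, the 4 with most UMIs and those past 0.5.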

Additional observations from a re-analysis of the deposited data

Results flagged for a closer look

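The library ratio of *Sox9* ran in opposite directions in different clusters, past 0.5 both ways. The log2 ratio of PADI4 cKO over PADI4 WT was 0.62 in cluster 13, with the cortex keratin *Krt35* among its leading genes, and −1.24 in bulb cluster 8, from 30.9 to 47.4 CPM and from 13.1 to 5.5 CPM. That of *Runx1* was 0.55 in the sebocyte-like cluster 18 and −0.77 in cluster 16, which was given no territory. With 1 library for each label, neither difference was tested.

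*Trp63* was found in 47.3% of the 55 fibroblast-like cells of the PADI4 WT library and in 46.7% of the 30 of the library labelled PADI4 cKO, at 158 and 182 CPM, cells whose *Trp63* level is not used above. The keratin *Krt14* was found in 60% and 43.3% of the same cells, at 564 and 384 CPM, against 1205 and 813 CPM in the epithelial cells. The part of epithelial RNA in these droplets was not tested.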

How the results depend on the processing

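Of 406 values recomputed under 15 planned settings and 7 added after the data had been seen, 246 stayed within their counting interval or within 1.5 times the count, 156 moved and 4 reversed. The number of factors highest in the ORS-like cells was 5, 7 with a limit of 4000 UMIs per cell and at Leiden resolution 2.0, and 8 with territories by the number of raised markers. The median log2 ratio of the 8 factors in ORS-like over bulb-like cells, 2.15, became 2.01 with a limit of 1000 UMIs per cell, 1.73 with 4000 UMIs, 1.83 at Leiden resolution 0.5, 1.84 at resolution 2.0, 1.99 with the factors allowed in the clustering, 2.31 with empty-droplet UMIs subtracted, 2.34 with cells thinned to 2000 UMIs, 1.99 with territories by number and 1.73 by share of markers, with each factor above 0, though for *Lhx2* with 4000 UMIs the interval took in 0 (0.032, −0.032 to 0.095). Against the upper follicle *Nfatc1* turned to 0.69 with 4000 UMIs, 0.077 at resolution 2.0 and 2.28 with territories by number, where *Runx1* turned to 0.60, and *Runx1* was −0.10 (−0.38 to 0.17) with 4000 UMIs. By number, clusters 1 and 20 no longer count as upper follicle. The median library ratio in ORS-like cells, 0.12, was 0.19 with 4000 UMIs, 0.21 at resolution 2.0, 0.15 where *Xist* but no Y-linked UMI was found, and 0.0070, 0.012 and −0.061 in clusters 6, 11 and 14 alone. The 15 pairs of factor and cluster past 0.5 became 9 in cells with *Xist* UMIs, 6 with thinned cells and 2 with a minimum of 500 UMIs, as fewer UMIs or pairs entered, and 22 without doublets, 21 with empty-droplet UMIs subtracted and 19 with a minimum of 50 UMIs. The number of pairs compared also changed, for example from 116 to 126 without doublets, and the share of all genes under these settings is not given here. The 20 factor pairs found together became 13 with all UMIs of a cell. The share of ORS-like cells with at least 3 factors, 86.5% over both libraries, was 85.3% with 1000 UMIs, 84.0% with 4000 UMIs, 84.9% without doublets, 84.5% at resolution 2.0, 99.98% with all UMIs and 98.0% with cells thinned to 4000 UMIs. The cause of these shifts was not tested. No paired analysis was possible because the labels give no replicate numbers and hold 1 library for each genotype.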
